A study of Mus musculus with 8 samples.

Results

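Of the 21193 genes named on the arrays, 10 transcription factors and partners of blood cell development were followed here: Runx1, Runx2, Runx3, Cbfb, Myb, Lmo2, Gata2, Tal1, Spi1 (listed under its older name, Sfpi1) and Mitf. Their 21 probes were found by gene name, with no threshold on a measured value, and were taken on all 8 arrays. The cells were Ba/F3, a mouse pro-B cell line that normally needs interleukin 3, made to express FLT3/ITD, the receptor with an internal tandem duplication found in acute myeloid leukaemia, or wild type FLT3. Per the labels, the 4 groups of 2 arrays were FLT3/ITD cells incubated for 4 h with 100 ng/ml recombinant murine Cxcl12, wild type FLT3 cells given the same, FLT3/ITD cells without Cxcl12 and wild type FLT3 cells without Cxcl12. All cells had been grown with recombinant mouse interleukin 3, washed and moved to albumin medium for the incubation. The arrays came as 2 sets, with every group once in each. Cells with FLT3/ITD were of the N51 form in set 1 and of the N78 form in set 2, so that the form of FLT3/ITD and the array set cannot be told apart. The labels do not say whether the 2 wild type FLT3 samples of a group were separate cultures, nor whether a line was 1 clone, so the p-values measure the spread between these arrays alone. The series asks which mRNAs FLT3/ITD and Cxcl12 regulate.

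RUNX proteins bind DNA through the runt domain and are stabilised on it by CBFB, their shared non-DNA-binding partner. RUNX1 sets up blood stem cells, RUNX2 is best known as the master regulator of bone formation, and RUNX3 acts in lymphocytes and neurons. MYB keeps blood progenitors dividing and immature. LMO2 binds no DNA itself and bridges TAL1 and its E-protein partners to GATA factors through LDB1, while GATA2 and MITF act together in mast cells and SPI1, the PU.1 protein, directs myeloid and B cell genes. Each Runx gene has a distal and a proximal promoter, which give proteins with different first residues.

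The RefSeq promoter table (GRCm38.p6, windows of 300 bases that end 50 bases after a start site) matched 8 of the 10 genes, at 14 start sites; Lmo2 and Spi1 have no entry. The distal windows of the 3 Runx genes are shown because Runx2 was the family member called below and has a probe at its distal start. Capitals mark matches to the RUNX motif TGNGGT on either strand (on the minus strand it reads ACCNCA).
Runx1 distal (chr16:92826025-92826324, minus strand): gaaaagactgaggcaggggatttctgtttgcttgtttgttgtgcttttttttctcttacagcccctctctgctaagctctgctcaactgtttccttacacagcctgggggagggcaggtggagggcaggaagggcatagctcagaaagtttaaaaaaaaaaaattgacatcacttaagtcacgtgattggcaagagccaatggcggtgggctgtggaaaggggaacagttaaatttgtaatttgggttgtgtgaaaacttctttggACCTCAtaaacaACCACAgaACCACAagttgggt
Runx2 distal (chr17:44814578-44814877, minus strand): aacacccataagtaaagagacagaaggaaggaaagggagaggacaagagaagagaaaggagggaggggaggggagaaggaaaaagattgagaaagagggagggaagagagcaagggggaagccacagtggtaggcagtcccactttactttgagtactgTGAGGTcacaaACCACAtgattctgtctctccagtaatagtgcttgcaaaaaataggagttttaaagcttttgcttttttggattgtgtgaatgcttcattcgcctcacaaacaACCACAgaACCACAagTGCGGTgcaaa
Runx3 distal (chr4:135120395-135120694, plus strand): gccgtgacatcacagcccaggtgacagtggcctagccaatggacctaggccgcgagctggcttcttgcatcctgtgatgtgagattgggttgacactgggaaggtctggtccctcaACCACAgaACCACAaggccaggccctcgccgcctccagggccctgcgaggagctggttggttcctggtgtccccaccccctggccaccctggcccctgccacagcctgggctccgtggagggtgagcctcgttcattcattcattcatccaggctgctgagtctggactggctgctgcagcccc

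The Runx2 window held 5 matches, the Runx1 window 3 and the Runx3 window 2, while the proximal windows of Runx1 and Runx3 held 0. The promoter table has no proximal window of Runx2, so that contrast could not be made for it. Among all 32851 promoter windows of this length, 45.8% held at least 1 RUNX match, 13.9% at least 2, 3.28% at least 3 and 0.167% at least 5. The longest run that the 3 distal windows share is an 18-base pair of RUNX matches, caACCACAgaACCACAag, which begins 21 bases after the start site in Runx2, 26 bases after it in Runx1 and 136 bases before it in Runx3. Only 4 of the 32851 windows hold it, the other being that of Gm16225. The windows compared were those of each Runx gene with the most RUNX matches, and the run was picked because they share it. Its rarity among all windows is therefore no test, and neither is the contrast between distal and proximal windows. The Myb window, by contrast, held 0 matches to the RUNX motif, to the GATA motif AGATAA (in 11.2% of all windows) and to the motif of MYB itself, which was searched as AACNGC (in 35.9%). Such matches are letters in a window and not measured binding.

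The sequences below are those of 3 probes described further on, with coordinates on mm9 as in the set 2 files. The first lies across the distal start codon of Runx2, in capitals, the next in the part of Myb that encodes its DNA-binding repeats, and the last, whose coordinates span an intron, in the LIM-domain part of Lmo2. Only the Lmo2 probe is the one by which its gene was called. The Runx2 probe was too dim to be tested, and Myb was called by another probe.
Runx2 distal start (chr17:44951128-44951187, minus strand): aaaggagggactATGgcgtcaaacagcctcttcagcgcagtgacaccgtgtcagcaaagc
Myb DNA-binding repeat (chr10:20872381-20872440, minus strand): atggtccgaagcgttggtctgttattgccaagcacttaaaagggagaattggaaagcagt
Lmo2 LIM domain (chr2:103816341-103821054, plus strand): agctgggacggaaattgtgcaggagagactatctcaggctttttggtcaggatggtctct

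A level below is log2 of the processed signal minus the array's 75th percentile, so that 0 is the brightness of the 75th-percentile probe. Levels of different probes are not compared with each other. The 75th percentile of signal was 945 to 1124 in set 1 and 367 to 601 in set 2, and 49.0% to 55.0% of probes were well above background on an array. Of the 21 probes, 19 passed the filter, which asked that both arrays of some group read well above background. These hold all 10 genes, each called by its brightest such probe. No probe of the 10 genes was saturated at the majority of its spots on any array. Arrays of the same set correlated more closely, at 0.953 to 0.989, than arrays of the same group in different sets, at 0.909 to 0.937, so the set entered the fit as a block. The arrays were in part at odds with the pro-B label, since Ebf1, Igll1, Pax5, Rag1 and Rag2 were well above background on none of them, while the other 10 of 15 pro-B markers were on at least 1.

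**Figure D1:**
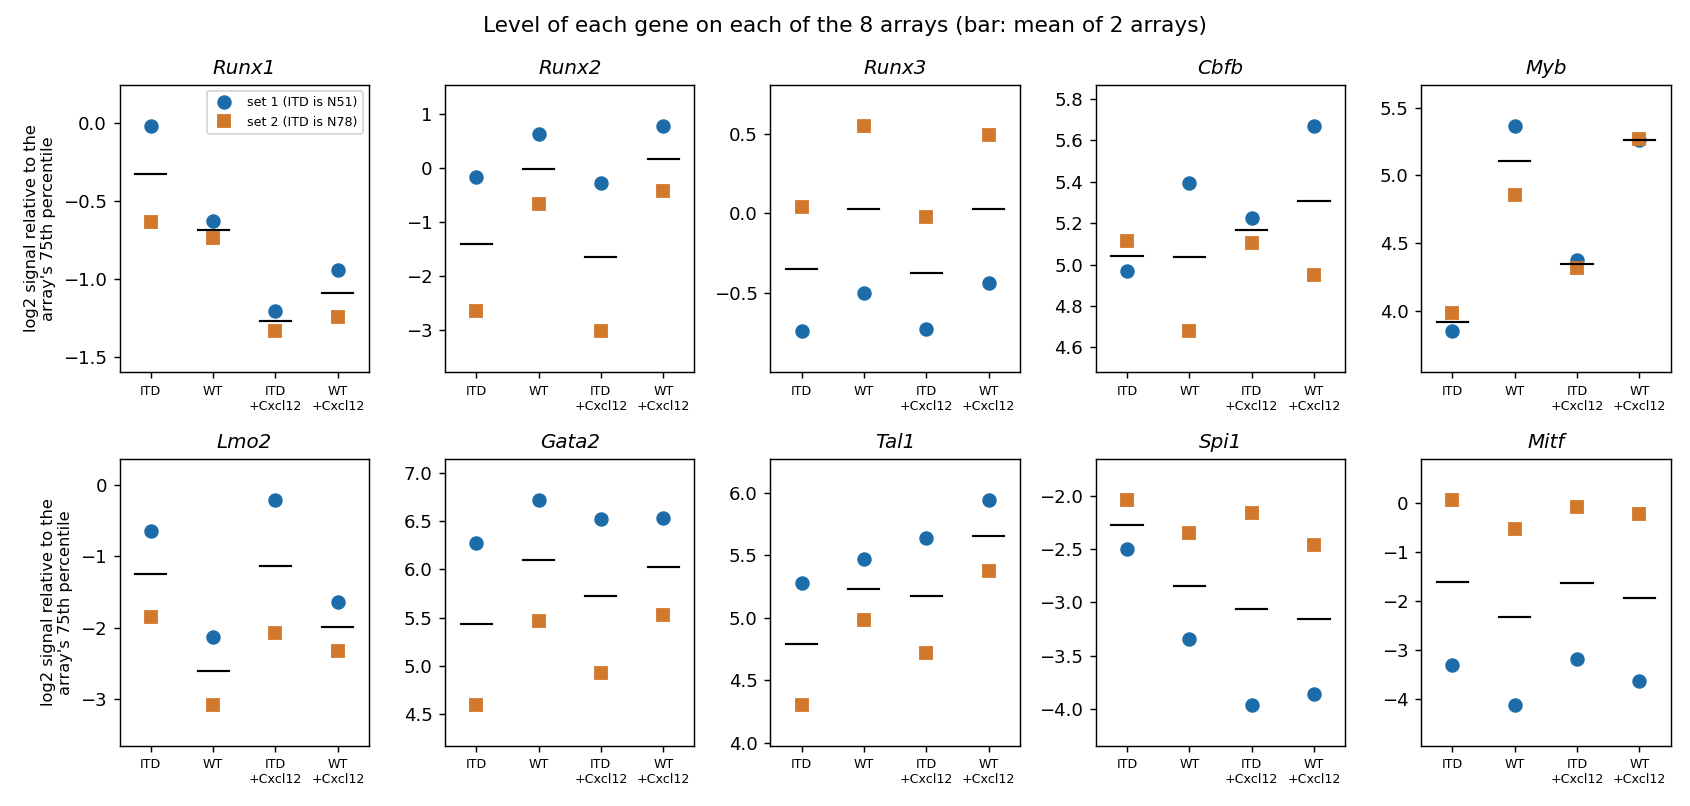
Level of each of the 10 genes by its brightest probe (y axis, log2 signal relative to the array's 75th percentile, with its own range in each panel) on each of the 8 arrays, by group along the x axis. Circles are set 1, squares set 2, and bars the mean of 2 arrays; both FLT3/ITD groups lie below their wild type FLT3 groups for Myb in both sets, from 3.85 to 4.37 against 4.85 to 5.36.

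The main question was which of these factors differ with FLT3/ITD. Averaged over cells with and without Cxcl12, Myb and Runx2 fell and Lmo2 rose in FLT3/ITD cells, and the other 7 genes did not pass the test (limma, Benjamini-Hochberg adjusted p under 0.05 over all 21049 tested probes). Thus 3 of 10 genes were called, where 6.04% of all probes were, with 1 of 10 higher (3.22% of all probes) and 2 of 10 lower (2.82%). These shares are over probes, of which a gene can have several. The 10 genes were chosen with earlier results of these data known, so the shares are no test of the group. With 1 probe per gene, 914 of 12048 genes were called, 557 higher and 357 lower. Over all probes 678 were higher and 593 lower, and with the authors' deposited tables in their place 1392 were higher and 553 lower. The median difference of the 10 genes was -0.23 on the log2 scale, and that of all tested probes -0.02. The level of 1 gene of the 10, Myb, did not overlap between the 4 FLT3/ITD arrays and the 4 wild type FLT3 arrays, against 5.31% of all probes.

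Myb, the progenitor factor, was at 0.481 times its wild type FLT3 level in FLT3/ITD cells. Its brightest probe had levels of 3.85 (set 1) and 3.98 (set 2) in FLT3/ITD cells without Cxcl12 and 4.37 and 4.31 with it, against 5.36 and 4.85 in wild type FLT3 cells without Cxcl12 and 5.26 and 5.27 with it. Every FLT3/ITD array lay below every wild type FLT3 array. The log2 difference was -1.06 (SE 0.148, n = 4 arrays each, limma adjusted p = 0.00743), with -1.20 in set 1 and -0.91 in set 2. This probe was printed at 10 spots an array, whose SD on the log2 scale was 0.04 to 0.07.

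Another Myb probe, on a separate deposited transcript (M16449), gave the largest difference of its 4 probes. Its level was 3.04 and 3.42 in FLT3/ITD cells without Cxcl12 and 3.02 and 3.76 with it, against 4.48 and 5.03 in wild type FLT3 cells without Cxcl12 and 4.57 and 5.02 with it. The groups again did not overlap. The log2 difference was -1.46 (SE 0.136, adjusted p = 0.000986), and this probe alone among the 19 also passed within each condition, at -1.41 with Cxcl12 (adjusted p = 0.0162) and -1.52 without it (adjusted p = 0.0162). The probe for the DNA-binding repeats, shown above, gave -1.07 (SE 0.164, adjusted p = 0.0109), with -0.96 in set 1 and -1.19 in set 2. So 3 of the 4 Myb probes fell. The fourth, on the transcript AK036518, differed by -0.50 (SE 0.459, adjusted p = 0.523), and on it a single array, wild type FLT3 with Cxcl12 in set 2, stood low at -1.68, against 0.63 to 1.36 on the other 3 wild type FLT3 arrays. For the brightest probe the adjusted p was 0.0643 without the array of wild type FLT3 cells with Cxcl12 in set 2 (log2 difference -1.02), and under another background correction (normexp) the difference was -0.65 with an adjusted p of 0.504.

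Runx2, the bone regulator of the family, was at 0.33 times its wild type FLT3 level in FLT3/ITD cells. Its brightest probe had levels of -0.15 (set 1) and -2.64 (set 2) in FLT3/ITD cells without Cxcl12 and -0.28 and -3.02 with it, against 0.63 and -0.67 in wild type FLT3 cells without Cxcl12 and 0.78 and -0.43 with it. Within each set the FLT3/ITD arrays lay below the wild type FLT3 arrays, but the sets overlapped, since the N51 arrays of set 1 lay above the wild type FLT3 arrays of set 2. The log2 difference was -1.60 (SE 0.276, adjusted p = 0.0163). A neighbouring probe on the same transcript gave -1.62 (SE 0.241, adjusted p = 0.00967).

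The Runx2 difference was -0.92 in set 1 (N51) and -2.28 in set 2 (N78) by the brightest probe and -1.09 and -2.15 by its neighbour. A test of set 2 minus set 1 was added after these values were seen. Its replicates were the arrays with and without Cxcl12 of each set, with 2 residual degrees of freedom. The p-value of that test measures their spread and not that between lines of each form. The test gave -1.36 (SE 0.302, unadjusted p = 0.00167, limma adjusted p = 0.158), which did not pass. It passed by a narrow margin without either array of FLT3/ITD cells without Cxcl12, at -1.48 (adjusted p = 0.0499 without that of set 1 and 0.0458 without that of set 2). None of the 10 genes passed that test, where 0.147% of all probes did, and 2 of them, Runx2 and Cbfb, had an unadjusted p under 0.05, as 13.5% of all probes did. The next 2 Runx2 probes were dim. The probe at the distal start codon, shown above, was well above background on 0 of 8 arrays, and a probe between it and the bright ones on 2, both of wild type FLT3 cells in set 2; neither was tested. The Runx2 call was lost without any 1 of 3 set 2 arrays, with an adjusted p of 0.0965 without FLT3/ITD cells without Cxcl12 (log2 difference -1.42), 0.0885 without wild type FLT3 cells with Cxcl12 (-1.36) and 0.0528 without wild type FLT3 cells without Cxcl12 (-1.39). With no filter on dim probes its adjusted p was 0.0629.

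Lmo2, the bridging partner of TAL1 and GATA factors, was at 2.14 times its wild type FLT3 level in FLT3/ITD cells. Its only probe, shown above, had levels of -0.65 (set 1) and -1.85 (set 2) in FLT3/ITD cells without Cxcl12 and -0.21 and -2.08 with it, against -2.13 and -3.08 in wild type FLT3 cells without Cxcl12 and -1.64 and -2.32 with it. Without Cxcl12 the FLT3/ITD arrays lay above both wild type FLT3 arrays, and with Cxcl12 the groups overlapped. The log2 difference was 1.10 (SE 0.224, adjusted p = 0.0289), with 1.46 in set 1 and 0.74 in set 2, and it was smallest, at 0.24, in set 2 with Cxcl12. The Lmo2 call rested on nearly every array: leaving out 1 of 8 arrays ended it in 7 cases, with adjusted p values of 0.0509 to 0.138 and log2 differences of 0.87 to 1.26. It also ended with no filter on dim probes (adjusted p = 0.0951) and under the normexp correction, where the difference was 0.41 (adjusted p = 0.468).

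**Figure D2:**
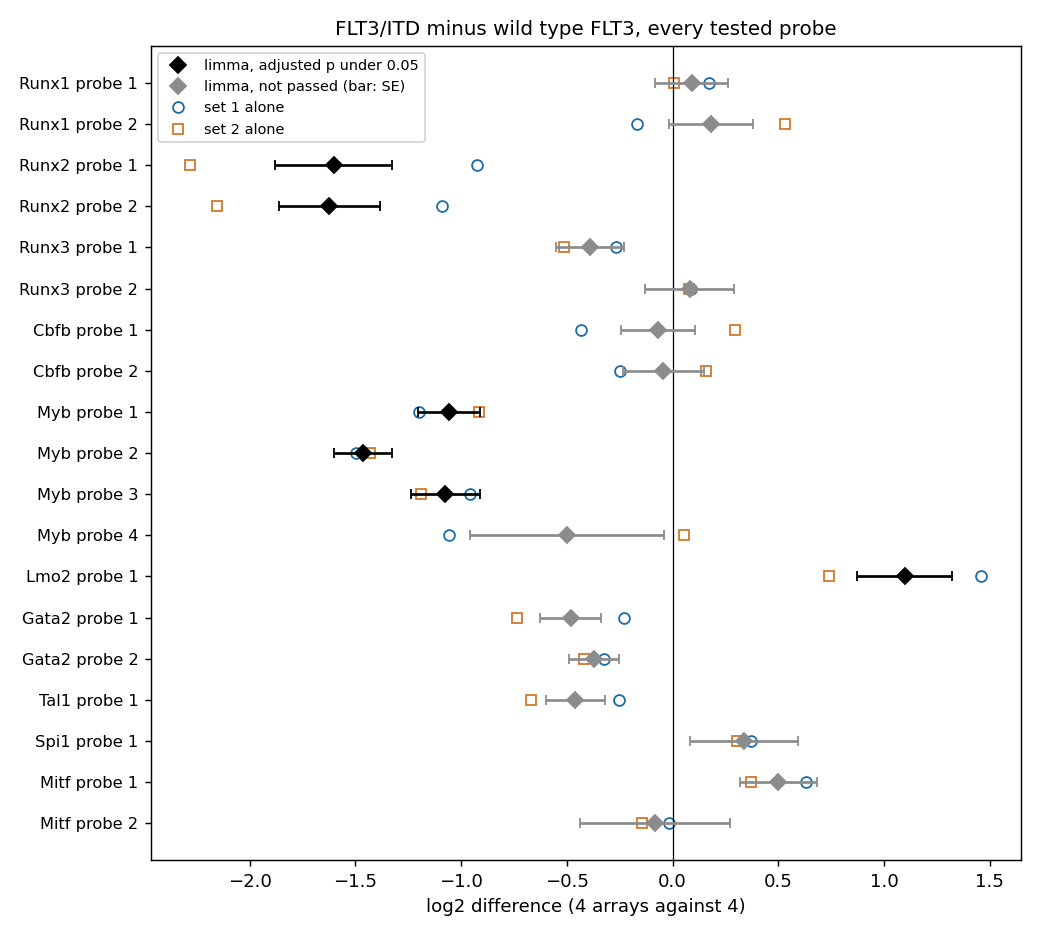
Log2 difference between FLT3/ITD and wild type FLT3 cells (x axis), averaged over cells with and without Cxcl12, for each of the 19 tested probes of the 10 genes (y axis). Probe 1 is the brightest probe of its gene. Diamonds are the limma estimates with their SE (black where the adjusted p is under 0.05), circles set 1 alone and squares set 2 alone; 2 Runx2 probes, 3 Myb probes and the Lmo2 probe are black.

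The remaining core-binding factors did not pass. Runx1, the blood stem cell member, had levels of -0.02 (set 1) and -0.63 (set 2) in FLT3/ITD cells without Cxcl12 and -1.20 and -1.33 with it, against -0.63 and -0.74 in wild type FLT3 cells without Cxcl12 and -0.94 and -1.24 with it. Its groups overlapped, and the log2 difference with FLT3/ITD was 0.09 (SE 0.172, limma adjusted p = 0.773). The difference was 0.36 without Cxcl12 and -0.18 with it. On the other Runx1 probe, FLT3/ITD lay below wild type FLT3 of the same condition in set 1 and above it in set 2. Without Cxcl12 its levels were -1.86 (set 1) and -0.01 (set 2) in FLT3/ITD cells, against -1.83 and -0.58. With Cxcl12 they were -2.34 and -0.35, against -2.03 and -0.83. That probe did not pass either. Runx3 differed by -0.39 (SE 0.16, adjusted p = 0.159) by its brightest probe, with levels of -0.74 to 0.04 in FLT3/ITD cells and -0.50 to 0.55 in wild type FLT3 cells, and by 0.08 by its other probe. For Cbfb the sets went opposite ways, at -0.43 in set 1 and 0.30 in set 2, and the average was -0.07 (SE 0.173, adjusted p = 0.831). Its level was 4.97 to 5.23 in FLT3/ITD cells and 4.68 to 5.67 in wild type FLT3 cells. On the other Cbfb probe, FLT3/ITD also lay below wild type FLT3 in set 1 and above it in set 2, without passing. Thus of the 3 Runx genes and Cbfb, Runx2 alone was called.

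Gata2 and Tal1, which work in one complex with LMO2, had lower mean levels in FLT3/ITD cells in both sets without passing. Gata2 had levels of 6.27 (set 1) and 4.60 (set 2) in FLT3/ITD cells without Cxcl12 and 6.52 and 4.93 with it, against 6.72 and 5.47 in wild type FLT3 cells without Cxcl12 and 6.53 and 5.53 with it. The log2 difference was -0.48 (SE 0.145, unadjusted p = 0.00886, adjusted p = 0.0797), and its other probe gave -0.37 (adjusted p = 0.0895). Tal1 had levels of 5.27 and 4.30 in FLT3/ITD cells without Cxcl12 and 5.64 and 4.72 with it, against 5.47 and 4.99 in wild type FLT3 cells without Cxcl12 and 5.94 and 5.37 with it. Its difference was -0.46 (SE 0.139, unadjusted p = 0.00888, adjusted p = 0.0797). In both genes the difference was smaller in set 1 (-0.23 for Gata2, -0.25 for Tal1) than in set 2 (-0.73 and -0.67), and the test of that gap did not pass (adjusted p = 0.383 for Gata2 and 0.46 for Tal1). Under the normexp correction the difference was -0.061 for Gata2 (adjusted p = 0.944) and -0.029 for Tal1 (adjusted p = 0.972). Lmo2, the third member of this complex, was the only one of the 3 that was called, and in the other direction.

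Spi1 and Mitf stood higher in FLT3/ITD cells without passing. Spi1 differed by 0.34 (SE 0.253, adjusted p = 0.43), with levels of -3.96 to -2.03 in FLT3/ITD cells and -3.86 to -2.35 in wild type FLT3 cells, and the groups overlapped. Mitf differed by 0.50 (SE 0.181, adjusted p = 0.123) by its brightest probe, again printed at 10 spots, and by -0.08 by its other probe, which was well above background on 6 of 8 arrays. Under normexp the Mitf difference was 0.28 (adjusted p = 0.608) and that of Spi1 -0.22. The largest contrast of the Mitf probe was between the sets: its levels were -3.32 and -3.19 in FLT3/ITD cells of set 1 and 0.07 and -0.08 in FLT3/ITD cells of set 2, against -4.13 and -3.64 in wild type FLT3 cells of set 1 and -0.53 and -0.23 in wild type FLT3 cells of set 2. The set 2 minus set 1 gap was 3.24 in FLT3/ITD cells and 3.50 in wild type FLT3 cells for that probe, against 0.48 and 0.61 for the other Mitf probe. Over all tested probes the median size of this gap was 0.70 in FLT3/ITD cells and 0.79 in wild type FLT3 cells.

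Taken within 1 condition, no gene of the 10 was called by its brightest probe. With Cxcl12 the FLT3/ITD difference passed for 0 of 10 genes (0.732% of all probes, limma), and 4 of them had an unadjusted p under 0.05, as 18.5% of all probes did. Without Cxcl12 it also passed for 0 of 10 (0.352% of all probes), with 5 at an unadjusted p under 0.05, as were 11.8% of all probes. Myb differed by -0.92 with Cxcl12 (adjusted p = 0.0867) and by -1.19 without it (adjusted p = 0.0626). The Runx2 difference was -1.83 with Cxcl12 (adjusted p = 0.0751) and -1.38 without it (adjusted p = 0.243). For Lmo2 it was 0.84 (adjusted p = 0.206) and 1.36 (adjusted p = 0.157).

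The second question was the response to Cxcl12, the chemokine ligand of CXCR4. Averaged over both kinds of cell, 0 of 10 genes passed the test (0.214% of all probes, limma), and 2 of 10, Runx1 and Tal1, had an unadjusted p under 0.05, a share near the 15% of all probes. The median of the 10 genes was 0.15 on the log2 scale, against -0.01 for all probes. Runx1 was the 1 gene of 10 whose 4 arrays with Cxcl12 and 4 without did not overlap, against 2.43% of all probes. Its level was -1.20 and -1.33 in FLT3/ITD cells and -0.94 and -1.24 in wild type FLT3 cells with Cxcl12, against -0.02 and -0.63 in FLT3/ITD cells and -0.63 and -0.74 in wild type FLT3 cells without it. All 4 arrays with Cxcl12 thus lay below all 4 without. The log2 difference was -0.67 (SE 0.172, unadjusted p = 0.00347, adjusted p = 0.129), at -0.75 in set 1 and -0.60 in set 2, and it did not pass; under the normexp correction it was -0.36 (adjusted p = 0.904). The other Runx1 probe, which spans an intron, gave -0.32 (SE 0.2, adjusted p = 0.497), at -0.34 and -0.30.

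Among the other genes, Tal1 was higher with Cxcl12 in each of the 4 pairs of arrays of the same cells and set, without passing (0.41, SE 0.139, unadjusted p = 0.0162, adjusted p = 0.219), and its difference was 0.065 under normexp. Spi1 differed by -0.55 (SE 0.253, adjusted p = 0.346), with -0.99 in set 1 and -0.12 in set 2. Myb differed by 0.29 (adjusted p = 0.395) and Lmo2 by 0.36 (adjusted p = 0.492). The differences of Cbfb, Mitf, Gata2, Runx2 and Runx3 lay between -0.03 and 0.20, at adjusted p values of 0.64 to 0.985.

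Within FLT3/ITD cells alone, and within wild type FLT3 cells alone, 0 of 10 genes and 0% of all probes passed for Cxcl12 (limma), while an unadjusted p under 0.05 was found for 1 of 10 genes in FLT3/ITD cells (10.4% of all probes) and 0 of 10 in wild type FLT3 cells (6.83%). That 1 gene, Runx1, differed by -0.94 in FLT3/ITD cells (adjusted p = 0.348) and by -0.41 in wild type FLT3 cells (adjusted p = 0.84). Whether the Cxcl12 response differed between the 2 kinds of cell was tested as an interaction, which passed for 0 of 10 genes and 0% of all probes, with 0 of the 10 genes and 295 of all probes at an unadjusted p under 0.05. The interaction of Runx1 was -0.54 (SE 0.344, unadjusted p = 0.154).

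**Figure D3:**
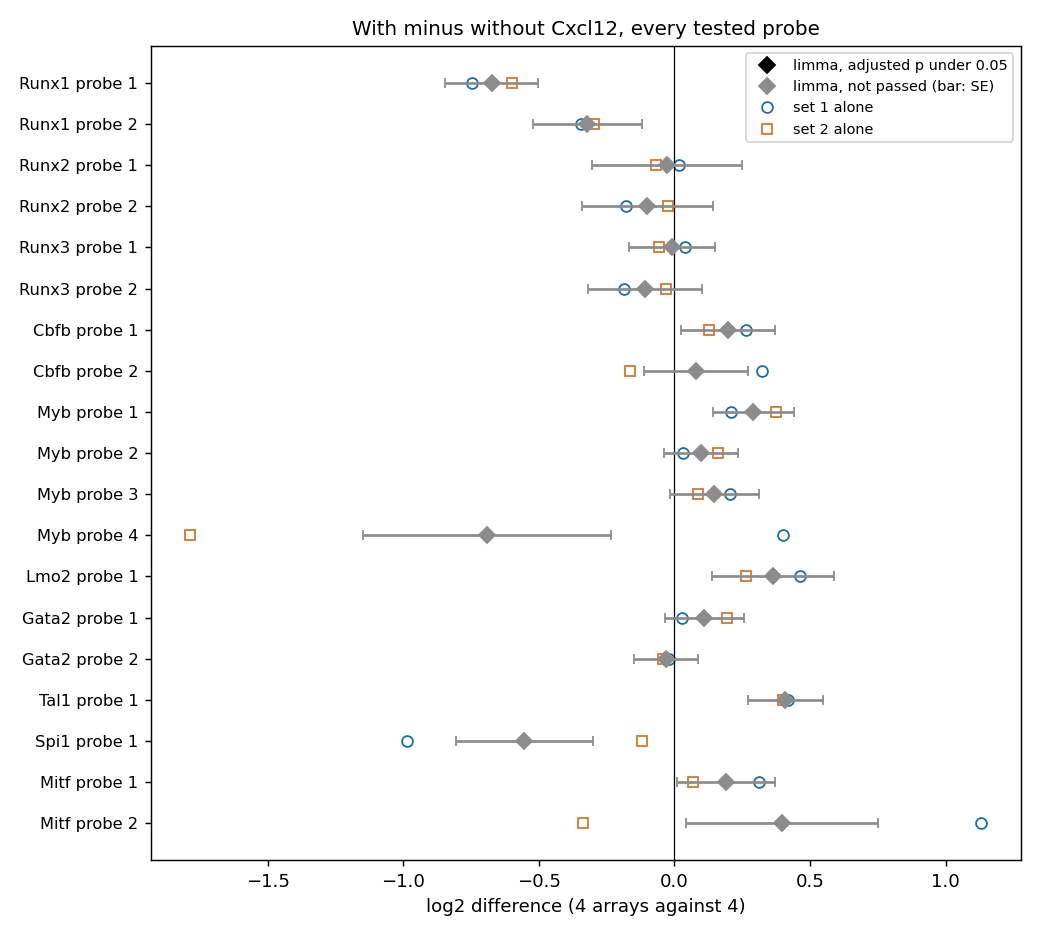
Log2 difference between cells with and without Cxcl12 (x axis), averaged over FLT3/ITD and wild type FLT3 cells, for the 19 tested probes of the 10 genes (y axis, numbered from the brightest). Grey diamonds are limma estimates that did not pass, with their SE, circles set 1 alone and squares set 2 alone; both Runx1 probes lie below 0 in both sets, at -0.67 and -0.32.

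The partners of these factors were then read from lists of textbook members, beside 6.04% of all probes called with FLT3/ITD. Of 15 tested partners and corepressors of core-binding factor, 0 were higher and 1 was lower in FLT3/ITD cells, the Groucho-type corepressor Tle1 (log2 difference -0.84, SE 0.194, adjusted p = 0.0408), and the acetyltransferase Ep300 differed by -0.67 without passing (adjusted p = 0.0537). The median of that list was -0.18. Of 13 tested partners of the LMO2, TAL1 and GATA complex, 0 were higher and 1 was lower, the LIM-only protein Lmo4 (-0.66, SE 0.135, adjusted p = 0.0289), and the median was -0.11. In both lists 1 call is close to the number that 6.04% gives, so nothing is read from these counts about either list. The scaffold Ldb1 (0.38), the TAL1 relative Lyl1 (0.48) and the GATA cofactor Zfpm1 (0.57) did not pass, nor did the E-proteins Tcf3 (-0.11) and Tcf12 (-0.21). In the MYB family, Mybl1 (-0.52, adjusted p = 0.165) and Mybl2 (0.31, adjusted p = 0.306) did not pass, and neither did Tfeb (0.47) or Tfe3 (0.13), relatives of Mitf. Of 7 tested ETS, IRF and C/EBP factors 0 passed (median -0.09), and of 13 other blood transcription factors 1 did, Id1, an inhibitor of E-proteins, which rose by 2.41 (SE 0.205, adjusted p = 0.000612; list median -0.09). For the Cxcl12 response averaged over both kinds of cell, 0 genes passed in any of these 6 lists.

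Genes known as targets were read beside the same 6.04% of all probes with FLT3/ITD and 0.214% with Cxcl12. The lists were chosen with earlier results of these data known, so these shares are no test of a list. Of 9 tested MYB targets, 0 passed with FLT3/ITD (median 0.30), while 2 rose with Cxcl12, the methionine adenosyltransferase Mat2a (1.21, SE 0.153, adjusted p = 0.0278) and Myc (1.21, SE 0.171, adjusted p = 0.0366; list median 0.28). Of 5 tested RUNX targets, the integrin gene Itgal rose with FLT3/ITD (0.98, SE 0.153, adjusted p = 0.012), and the median was -0.47. Another of them, the myeloid enzyme gene Mpo, differed by -4.04 in set 1 and 0.59 in set 2. Of 8 tested mast cell targets of GATA2 and MITF, 2 fell, the mast cell protease genes Mcpt4 (-3.31, SE 0.268, adjusted p = 0.000481) and Cma1 (-2.90, SE 0.242, adjusted p = 0.000567), and the median was -0.81. Of 9 tested PU.1 targets, 2 fell, the lectin receptor gene Clec7a (-4.46, SE 0.276, adjusted p = 0.000192) and the inhibitory Fc receptor gene Fcgr2b (-2.07, SE 0.239, adjusted p = 0.00294), and the median was -0.10. Both Mcpt4 and Clec7a were well above background on only 3 of the 4 FLT3/ITD arrays and on all 4 wild type FLT3 arrays. For the Cxcl12 response averaged over both kinds of cell, 0 genes passed in the RUNX, GATA2 and MITF, and PU.1 lists.

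**Figure D4:**
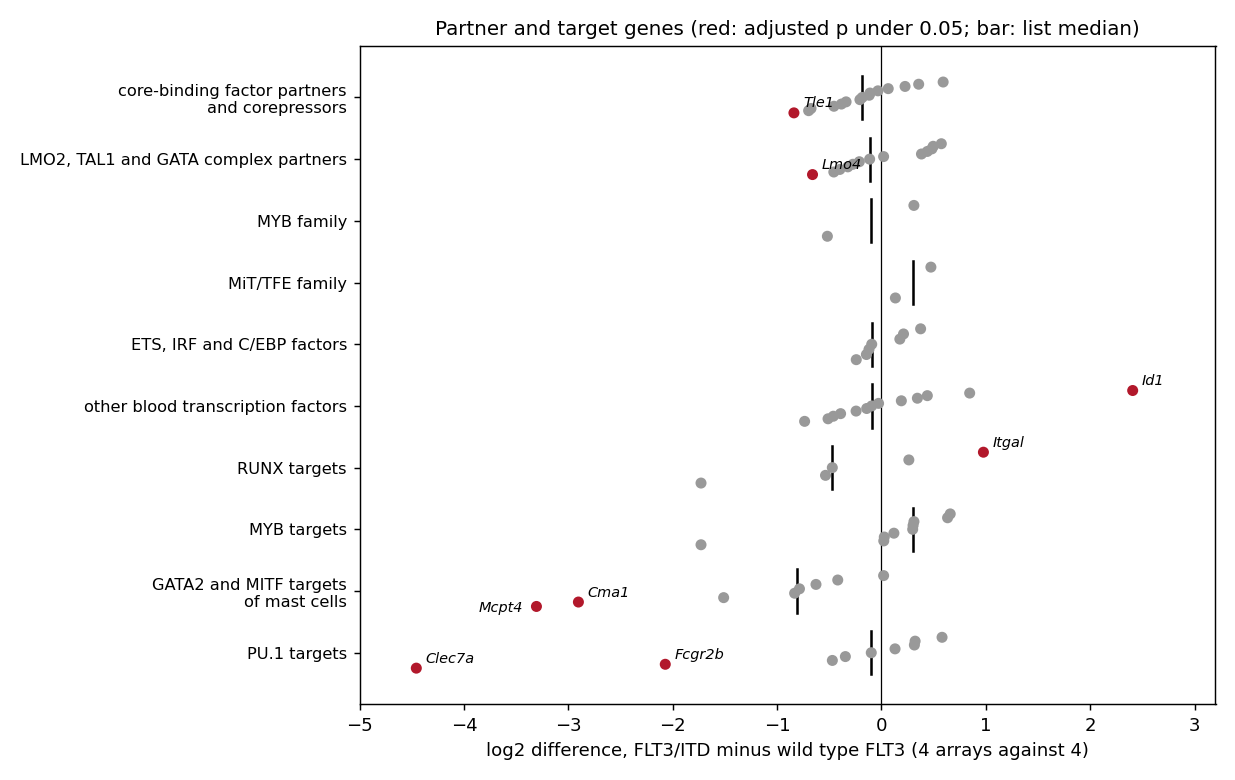
Log2 difference between FLT3/ITD and wild type FLT3 cells (x axis) of each tested gene in 10 lists of partners, relatives and targets (y axis). Points are genes, red and named where the limma adjusted p is under 0.05, and bars are list medians; 4 lists have 0 red points.

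Marker genes of blood cells were read beside the same 6.04% of all probes called with FLT3/ITD. Nothing is read about a list from a count of 1. The marker lists too were chosen with earlier results of these data known, so that share is no test of a list. Of 10 tested mast cell and basophil markers, 5 were lower and 0 higher in FLT3/ITD cells, and the summed signal of the list (in multiples of each array's 75th percentile) was 14.9 to 57.9 on FLT3/ITD arrays and 160 to 254 on wild type FLT3 arrays. Of those 5, Mcpt4 was well above background on 3 FLT3/ITD arrays and Cma2 on 2. The mast cell receptor Kit, Il1rl1 and the tryptases Tpsab1 and Tpsb2 were well above background on no array. The summed signal of neutrophil markers was 2.52 to 9.63 on FLT3/ITD arrays and 28.6 to 76.0 on wild type FLT3 arrays, with 1 of 4 tested lower, Ctsg. The other 3 did not pass: S100a9 differed by 1.10 (adjusted p = 0.222), Prtn3 by 0.44 (adjusted p = 0.225) and Mpo by -1.73 (adjusted p = 0.218). Of the same list, Elane, Camp, Ltf, Csf3r and S100a8 were well above background on no array. Of 9 tested pro-B markers, Ptprc and Csf2rb2 were lower. Of 6 tested monocyte markers, Lyz2 was higher (2.56) and the other 5 differed by -0.68 to -0.02 without passing, with a list median of -0.18. The summed signal of monocyte markers was 10.5 to 53.2 on FLT3/ITD arrays and 22.1 to 57.1 on wild type FLT3 arrays. In the other lists Lat (1 of 6 T and NK cell markers), Gp9 and Tfrc (2 of 6 erythroid and megakaryocyte markers) were higher. The other 5 T and NK cell markers differed by -0.054 to 0.799 without passing. The other 4 erythroid and megakaryocyte markers did not pass either. Of these, Epor (-0.62) and Klf1 (-0.24) were lower and Itga2b was higher (adjusted p = 0.0654). Hba-a1 went opposite ways, at 1.73 in set 1 and -1.26 in set 2. The part of these markers in the differences of Myb, Runx2 and Lmo2 was not tested, and in such bulk samples fewer cells of a type and less RNA per cell cannot be told apart.

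For the 3 called genes, the 3 genes with the most similar levels over the 8 arrays were listed as a description, with no test. The closest to Runx2 were Niban1 (Pearson r = 0.989), F13a1 (0.986) and Dmxl2 (0.986). The closest to Myb were Tmem127 (0.983), Plcd4 (0.966) and Slc23a3 (0.956), and those to Lmo2 were Grap2 (0.975), E2f4 (0.975) and Bin1 (0.971). The 8 arrays share 2 sets and 4 groups, and such values are picked as the highest of all genes.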

How the data were processed

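Total RNA of 8 Ba/F3 samples was hybridised to Agilent mouse arrays with 1 dye (Cy3), 1 array per sample. The deposited processed intensity is what Agilent Feature Extraction gave for each array after subtracting background, per the file headers (release 9.5.1.1 in set 1, release 10.7.3.1 in set 2). Arrays were not scaled to each other there, and 1 alternative used the foreground and background intensities. The authors' normalized tables matched the scanner values scaled to each array's median (within 0.01 log2 for 99.7% to 99.9% of probes) and also served as an alternative. Here, control spots and outlier flags were left out, spots of a probe averaged, log2 taken and each array's 75th percentile subtracted. Probes were kept if some group had both arrays well above background (21049 of 41174).

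All arrays were fitted with limma 3.58.1 (R 4.3.3 with the data.table package, release 1.17.8): 4 group means, the set as block, eBayes with trend, 3 residual degrees of freedom, 7 comparisons, Benjamini-Hochberg over all kept probes. The fit was tested on simulated data. The set is the slide in the file headers; after subtracting group means, arrays of 1 set correlated at 0.744 to 0.882. Probe coordinates are those of the set 2 files (mm9); promoters come from RefSeq. Genes were named by accession or symbol through RefSeq.

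The 10 genes and the 16 lists of partners, targets and markers were chosen with earlier results of these data known. Named from each list are up to 4 genes per comparison that pass with the smallest p, and complex or family members as examples. The test between the sets was added after the data were seen. The small number of arrays limits the precision. Alternatives were normexp background correction (offset 50), quantile normalization, the authors' tables, no filter, no block, 1 probe per gene and each array left out.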

Additional observations from a re-analysis of the deposited data

How the results depend on the processing

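The 3 genes called with FLT3/ITD depended on several choices. They came to 1 with normexp (Runx2), 1 with no filter on dim probes (Myb) and 0 with no replicate block, where 0 probes passed in any comparison (996 at an unadjusted p under 0.05 for FLT3/ITD). All 3 genes were called with quantile normalization, with the authors' tables and with 1 probe per gene. Leaving out 1 array gave 0 (wild type FLT3 with Cxcl12, set 2) to 3 genes. Within 1 condition, where 0 genes were called, 1 gene passed under quantile normalization (Myb, with and without Cxcl12), the authors' tables (Runx2 with Cxcl12, Lmo2 without), normexp (Runx2 with Cxcl12) and 1 probe per gene (Myb without Cxcl12). For set 2 minus set 1, leaving out 1 array gave 0 to 1 gene (Runx2).

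Probes past the test for FLT3/ITD numbered 1271, against 479 with normexp, 1945 with the authors' tables, 296 with no filter and 193 to 1563 with 1 array left out. With Cxcl12 the 154 became 258, 325, 32 and 23 to 285. Without Cxcl12 the 74 became 39 with quantile normalization, 205 with the authors' tables, 5 with no filter and 14 to 87 with 1 array left out. For Cxcl12 on average the 45 became 109 with normexp, 225 with the authors' tables, 2 with no filter and 4 to 262 with 1 array left out. For Cxcl12 in FLT3/ITD cells the 0 became 36 with normexp, 6 with the authors' tables and 0 to 63 with 1 array left out. In wild type FLT3 cells it became 18, 12, 9 with 1 probe per gene and 0 to 13. The interaction had 7 with normexp and 0 to 16 with 1 array left out. The 31 for set 2 minus set 1 became 77 with normexp, 341 with the authors' tables, 7 with no filter, 96 with 1 probe per gene and 6 to 640 with 1 array left out.

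Some differences that had not passed changed sign. With normexp, the FLT3/ITD difference was 0.36 for Cbfb, -0.20 for Runx1, -0.22 for Spi1 and, with Cxcl12, -0.053 for Lmo2; the Cxcl12 difference was -0.15 for Cbfb, -0.29 for Gata2, -0.089 for Myb, 0.075 for Runx2 and, in wild type FLT3 cells, 0.094 for Runx1. With the authors' tables it was 0.060 for Cbfb with FLT3/ITD and 0.010 for Runx3 with Cxcl12. With 1 array left out, the FLT3/ITD difference was -0.235 to 0.097 for Cbfb and -0.020 to 0.20 for Runx1, and the Cxcl12 difference -0.015 to 0.24 for Gata2, -0.30 to 0.24 for Runx2 and -0.071 to 0.051 for Runx3. The cause was not tested in any of these. The authors' tables moved the median of all probes to between -0.073 and 0.19, and no filter to between 0.068 and 0.23, outside the interaction. Of the 21 probes, 2 of Runx2 were too dim to be tested.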
